A study of Saccharomyces cerevisiae with 12 samples.

Results

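The 3 FKS family genes FKS1, GSC2 and FKS3 and the gene pair KRE6 and SKN1 were examined on 12 yeast expression arrays. They were taken as the probe sets that the platform annotation assigns to these symbols, and each of the 5 genes had 1 probe set among the 5449 genes tested. Their systematic names are YLR342W (FKS1), YGR032W (GSC2, also called FKS2), YMR306W (FKS3), YPR159W (KRE6) and YGR143W (SKN1). The cells were Saccharomyces cerevisiae BY4741, a haploid laboratory strain, and a pat1 mutant in the same background. Pat1 is an mRNA-binding protein that promotes decapping and decay. Exponential cultures of both strains received no drug or Congo Red at 30 µg/ml for 2 h. Congo Red is a dye that binds wall polymers and disturbs wall assembly. Each of the 4 groups had 3 arrays, and each biological sample gave an untreated and a treated array. The kind of pat1 allele and the number of independent clones are not given in the sources used here. Arrays read whole cultures, so a change in every cell and a change in some of the cells cannot be told apart.

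The yeast wall owes its strength to beta-1,3-glucan, which a plasma membrane synthase spins out of UDP-glucose under control of the GTPase Rho1. FKS1 encodes the catalytic subunit that serves during vegetative growth on glucose, and GSC2 encodes an alternative catalytic subunit whose transcription rises under wall stress, calcium signalling and poor carbon sources. FKS3 is a related gene with a role in spore wall formation. Kre6 and its paralog Skn1 are membrane proteins of the secretory pathway needed for beta-1,6-glucan, the shorter polymer that ties mannoproteins to the wall. Congo Red is a standard means to trigger the cell wall integrity pathway, in which the kinase Slt2 acts on the transcription factor Rlm1.

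All levels below are log2 signals as deposited, and differences are log2 differences between group means with the standard error of a limma fit over all genes. The threshold was an adjusted p of 0.05, with the Benjamini-Hochberg adjustment taken over all 5449 genes. Signals of different probe sets depend on their probes, so levels were not ranked between genes.

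The PAT1 signal separated the strains on every array, at 10.50 to 10.93 in wild type and 2.95 to 3.94 in the mutant. LEU2 and MET17, which are deleted in BY4741, gave 2.95 to 4.20 throughout. URA3, also deleted in BY4741, gave 7.71 on treated wild type array 2 and 6.76 on untreated pat1 array 1, against 2.94 to 3.27 on the other arrays. What the URA3 signal came from was not tested, and the values without both arrays are given below. HIS3, also read as a strain check, gave 10.53 to 11.18 over all arrays. FKS3 was among the dimmest 25% of genes by mean signal.

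GSC2, the stress-induced catalytic subunit, varied most among the 5 genes, over a range of 2.80 between its lowest and highest array (6.95-fold). Without drug the wild type arrays read 9.57, 9.62 and 9.30, a mean of 9.50 ± 0.17 (SD, n = 3). With Congo Red they read 11.58, 11.65 and 12.07, a mean of 11.77 ± 0.27. Every treated wild type array lay well above every untreated one. The pat1 arrays read 10.73, 10.85 and 11.54 without drug (11.04 ± 0.43) and 11.94, 11.93 and 12.10 with Congo Red (11.99 ± 0.09). The untreated mutant thus lay between the untreated and the treated wild type, with its array 3 at 11.54 just below the lowest treated wild type array at 11.58. In order of level the groups were untreated wild type, untreated pat1, treated wild type and treated pat1. The first step was a gap of 1.54, the second one of 0.73 with no overlap but only 0.04 between the ranges, and the last one of 0.22 with overlapping ranges (two-sided exact permutation p = 0.1, 0.1 and 0.3, where 0.1 is the smallest value for 3 against 3).

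FKS1, the main catalytic subunit, changed over a range of 0.78 (1.71-fold). Untreated wild type arrays read 12.87, 12.87 and 12.88, and treated ones 13.07, 13.13 and 13.20. In pat1 the untreated arrays read 12.43, 12.71 and 12.68, and the treated ones 12.87, 12.97 and 12.82. Treated arrays lay above untreated arrays in both strains, and pat1 arrays below wild type arrays of the same treatment, by small steps. Untreated wild type and treated pat1 overlapped. The spread of FKS1 between arrays of a group was among the narrowest on the array, with a residual SD of 0.09 against a median of 0.19 over all genes (percentile 6.7). GSC2 (0.27, percentile 79.3) and SKN1 (0.28, percentile 81.6) were more variable than most genes.

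FKS3, the spore wall member of the family, had separate ranges in the strains. Wild type arrays read 5.46, 5.61 and 5.85 without drug and 5.79, 5.52 and 5.81 with Congo Red. The pat1 arrays read 6.51, 6.09 and 6.20 without drug and 6.75, 6.35 and 6.15 with Congo Red. All 6 mutant arrays lay above all 6 wild type arrays, while the treated and untreated arrays of a strain overlapped.

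KRE6 had separate ranges in untreated and treated arrays. It read 11.58, 11.53 and 11.79 in untreated and 12.13, 11.98 and 12.26 in treated wild type, and 11.26, 11.80 and 11.81 in untreated and 11.86, 12.01 and 12.28 in treated pat1. The lowest treated array of either strain, at 11.86, lay above the highest untreated array, at 11.81. SKN1 read 9.93, 9.77 and 10.24 in untreated and 10.38, 10.11 and 10.75 in treated wild type. In pat1 it read 9.23, 9.59 and 9.73 without drug and 9.49, 9.75 and 10.12 with Congo Red. The SKN1 group means stood in the order untreated pat1, treated pat1, untreated wild type and treated wild type. The steps were 0.27, 0.19 and 0.43, with overlap between all neighbouring groups.

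**Figure D1:**
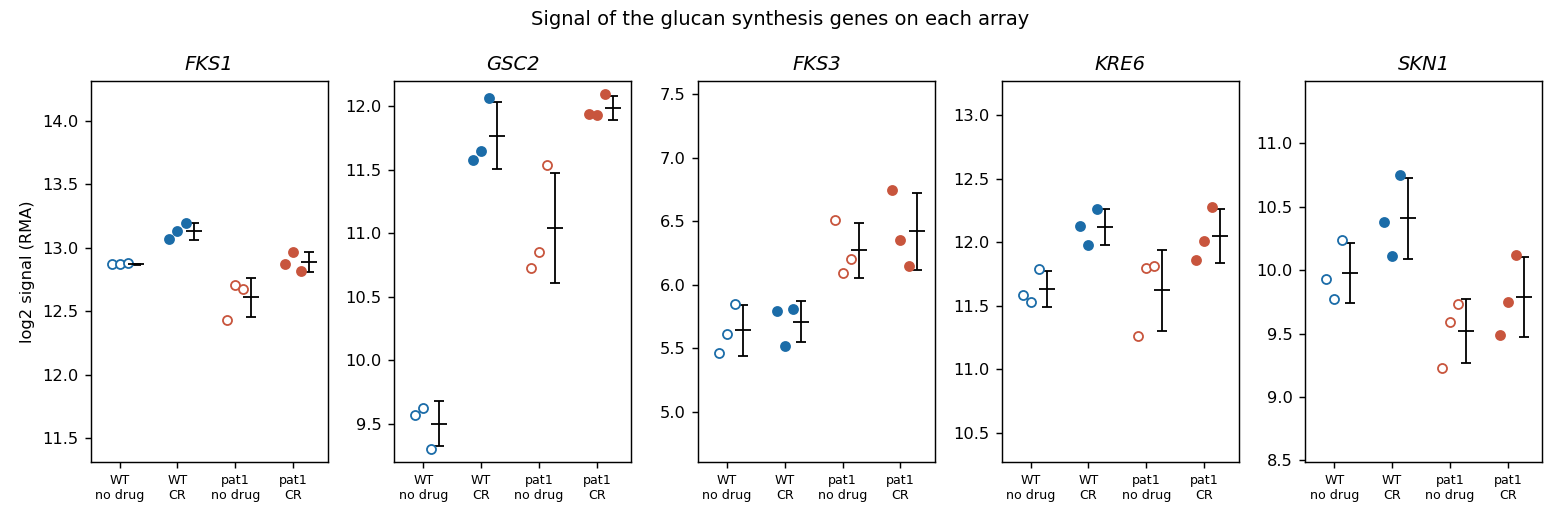
Log2 signal of FKS1, GSC2, FKS3, KRE6 and SKN1 on each of the 12 arrays; open points are untreated, filled points treated with Congo Red (CR), blue wild type (WT) and red pat1, and the bar beside each group is its mean ± SD (n = 3). Each panel spans the same height on the log2 axis but starts at its own level. GSC2 rises from 9.50 to 11.77 in wild type and starts from 11.04 in untreated pat1, while the pat1 arrays stand above wild type for FKS3 and mostly below it for SKN1.

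The first comparison asked how wild type cells change these genes under Congo Red. GSC2 rose 4.81-fold (2.27 ± 0.20, SE, limma adjusted p = 7.70e-05), the tenth largest increase of all genes. FKS1 was higher by 0.27 ± 0.10 (adjusted p = 0.267), KRE6 by 0.49 ± 0.17 (adjusted p = 0.204) and SKN1 by 0.43 ± 0.21 (adjusted p = 0.425), none of which passed. FKS3 differed by 0.07 with a 95% interval of -0.31 to 0.44. So 1 of the 5 genes rose, where 2.44% of all genes did. The treated and untreated groups did not overlap for FKS1, GSC2 and KRE6, 3 of 5 against 20.7% of all genes. GSC2 passed in all 24 alternative settings, with values from 2.12 to 2.39, although some of these settings could not move the value.

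The responses were also read within each biological sample. GSC2 rose by 2.01, 2.03 and 2.77 in wild type samples 1, 2 and 3. KRE6 was higher by 0.55, 0.45 and 0.46, SKN1 by 0.45, 0.34 and 0.51, and FKS1 by 0.21, 0.26 and 0.33 on the treated array of each pair. FKS3 gave 0.32, -0.08 and -0.05, with no common sign. In the fit with a replicate block for each biological sample, KRE6 and SKN1 passed as well (adjusted p = 0.00802 each), and FKS1 did not (adjusted p = 0.0600), which makes 3 of 5 higher against 8.22% of all genes. With a random block instead, FKS1 passed too (adjusted p = 0.0229). Treated wild type array 3 had the highest SKN1 signal of all arrays, and without it the SKN1 response in the fit without a block was 0.27 (adjusted p = 0.887).

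In the pat1 mutant GSC2 was higher by 0.95 ± 0.20 with Congo Red (1.93-fold), the 26th largest value of all genes, and missed the threshold (adjusted p = 0.0706). KRE6 was higher by 0.43 ± 0.17 (adjusted p = 0.749), FKS1 by 0.28 ± 0.10 (adjusted p = 0.681), SKN1 by 0.27 ± 0.21 (adjusted p = 1.00) and FKS3 by 0.15 ± 0.17 (adjusted p = 1.00). None of the 5 passed the limma test, where 0.661% of all genes rose, and 3 of 5 had an unadjusted p under 0.05, where 5.60% of all genes did. The treated arrays of FKS1, GSC2 and KRE6 lay above the untreated ones without overlap, 3 of 5 against 8.15% of all genes. With the replicate block GSC2 (adjusted p = 0.0240) and KRE6 (adjusted p = 0.0427) rose, 2 of 5 against 1.96%. Without untreated pat1 array 3, whose GSC2 signal of 11.54 was the highest of its group, the GSC2 response was 1.20 (adjusted p = 0.00743). Leaving out any other array did not bring GSC2 under the threshold. The response was 0.79 without untreated pat1 array 1 (adjusted p = 0.237) and 0.85 without untreated pat1 array 2 (adjusted p = 0.281). Without treated pat1 array 3 it was 0.89 (adjusted p = 0.291). GSC2 passed in 4 of 24 alternatives.

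The pat1 samples were spread more widely for KRE6 and FKS1. GSC2 was higher by 1.21, 1.08 and 0.56 in samples 1, 2 and 3. KRE6 gave 0.60, 0.21 and 0.47, SKN1 0.26, 0.16 and 0.39, and FKS1 0.44, 0.26 and 0.14. FKS3 gave 0.24, 0.26 and -0.05. The SKN1 response in pat1 was 0.42 without treated array 1, 0.13 without untreated array 1 and 0.11 without treated array 3, and did not pass in any of these. The 4 genes other than FKS3 were higher on the treated array in 6 of 6 biological samples of both strains. The share of all genes with such a common sign was not counted, so this is only a description. All 4 genes were read on the same 6 pairs of arrays, so their signs are not independent of each other.

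The second question was how the untreated strains differ. GSC2 was higher in the mutant by 1.54 ± 0.20 (2.91-fold, limma adjusted p = 0.00270), the 18th largest increase of all genes. The value stayed between 1.29 and 1.70 and passed in all 23 alternative settings, some of which could not move it. FKS3 was higher by 0.63 ± 0.17 (1.55-fold) and just missed the threshold (adjusted p = 0.0525). It passed when treated pat1 array 1 was left out (adjusted p = 0.0397), or array 3 of that group (adjusted p = 0.0458), arrays that change only the estimate of the spread. With array weights FKS3 passed too (adjusted p = 0.0104), which made 3 of 22 alternatives. Over these 22 its value ran from 0.51 to 0.73, with adjusted p up to 0.166. FKS1 differed by -0.26 ± 0.10 (adjusted p = 0.132) and SKN1 by -0.46 ± 0.21 (adjusted p = 0.200). KRE6 differed by -0.01 with a 95% interval of -0.37 to 0.35. So 1 of 5 rose against 3.51% of all genes, and none fell against 2.94%. The strains did not overlap for FKS1, GSC2, FKS3 and SKN1, 4 of 5 against 26.9% of all genes.

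With Congo Red in both strains the GSC2 difference was 0.22 ± 0.20, with a 95% interval of -0.22 to 0.66 (adjusted p = 0.546). It was 0.13 without treated wild type array 1 and 0.37 without treated wild type array 3, again without passing. FKS3 was higher in the mutant by 0.71 ± 0.17 (1.64-fold, adjusted p = 0.0350) and was the only one of the 5 to pass, against 4.26% of all genes higher and 2.18% lower. This call held in 10 of 22 alternatives. It was lost when any 1 treated wild type array was left out: without the first the value was 0.75 (adjusted p = 0.0794), without the second 0.62 (adjusted p = 0.106) and without the third 0.76 (adjusted p = 0.0830). It was also lost at 0.55 (adjusted p = 0.0895) when array 1 of treated pat1 was left out, at 0.75 (adjusted p = 0.0693) when array 2 was, and without untreated wild type array 1 (adjusted p = 0.0506). SKN1 differed by -0.62 ± 0.21 (adjusted p = 0.0985), with the highest treated pat1 array at 10.12 against the lowest treated wild type array at 10.11. FKS1 differed by -0.25 ± 0.10 (adjusted p = 0.160) and KRE6 by -0.07 ± 0.17 (adjusted p = 0.834). The strains did not overlap for FKS1 and FKS3, 2 of 5 against 29.7% of all genes. The 2 comparisons of the strains use different arrays of the same biological samples and are not independent of each other.

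Of the 5 genes, GSC2 had the largest difference between its responses in pat1 and in wild type, at -1.32 ± 0.29 (95% interval -1.94 to -0.69), the sixth lowest value of all genes. The increase was larger in each wild type sample than in each pat1 sample. It did not pass over all genes (limma adjusted p = 0.752), where no gene did (0.0%), and its unadjusted p of 0.000662 stood among the 2.39% of genes under 0.05. With the replicate block it did not pass (adjusted p = 0.130, 0.0551% of all genes called), and with the random block it did (adjusted p = 0.0364, 0.202% called). For the other genes the difference was 0.02 (FKS1, 95% interval -0.29 to 0.32), 0.09 (FKS3, -0.45 to 0.62), -0.06 (KRE6, -0.58 to 0.45) and -0.16 (SKN1, -0.81 to 0.48). These intervals also hold moderate differences between the strains in either direction.

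**Figure D2:**
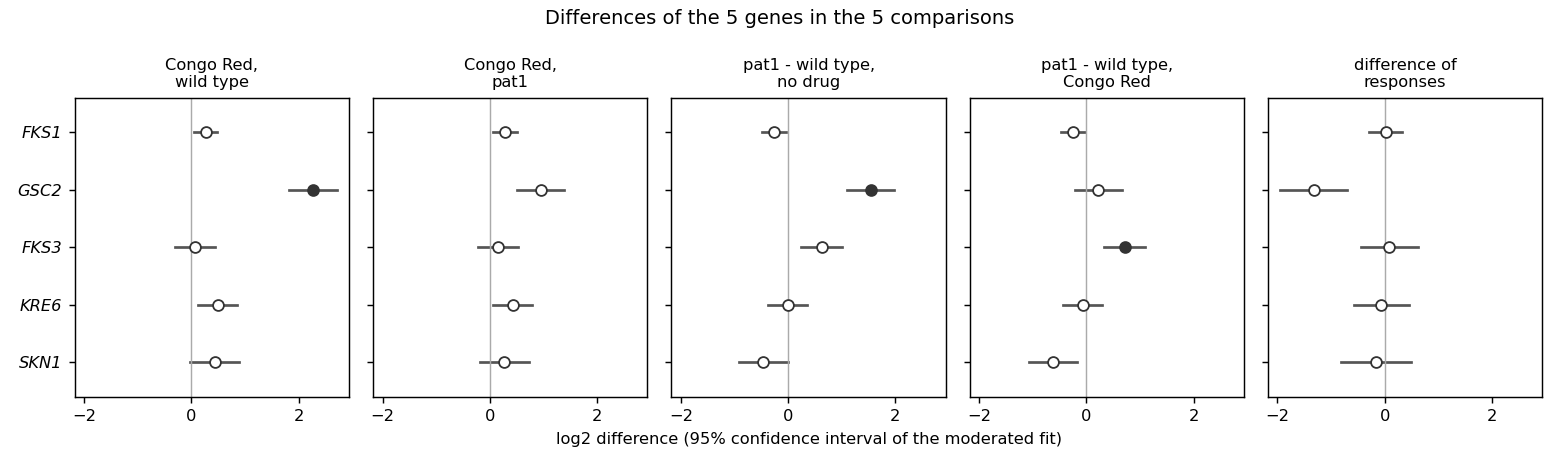
Log2 differences of the 5 genes in the 5 comparisons, with 95% confidence intervals of the moderated fit without block; filled points passed at an adjusted p under 0.05 and open points did not. GSC2 passes for Congo Red in wild type (2.27) and for pat1 against wild type without drug (1.54), and FKS3 passes for pat1 against wild type with Congo Red (0.71).

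The 2 arrays with URA3 signal touch several of these values. Untreated pat1 array 1 had the lowest signal of its group for FKS1, GSC2, KRE6 and SKN1 and the highest for FKS3. Without it and treated wild type array 2, the GSC2 response was 2.33 in wild type (adjusted p = 0.000480) and 0.79 in pat1 (adjusted p = 0.309), and GSC2 in untreated pat1 was 1.70 above wild type (adjusted p = 0.00844). FKS3 was then higher in pat1 by 0.51 without drug (adjusted p = 0.154) and by 0.62 with Congo Red (adjusted p = 0.0834), so its call was lost. In pat1 the KRE6 response was 0.24 in place of 0.43, the SKN1 response 0.13 in place of 0.27, and the FKS1 response 0.19 in place of 0.28. The FKS1 difference between untreated strains was -0.17 in place of -0.26. KRE6 in untreated pat1 was 0.17 above wild type in place of 0.01 below it.

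The paralogs were set against each other as the log2 difference of their signals on the same array, of which only the change between groups can be read. The GSC2 to FKS1 difference moved by 2.00 with Congo Red in wild type, a 4.01-fold shift towards GSC2, and by 0.67 in pat1 (1.59-fold). It was 1.80 higher in untreated pat1 than in untreated wild type and 0.47 higher with Congo Red. In each of these 4 comparisons the groups did not overlap (exact permutation p = 0.1, the smallest possible, adjusted p = 0.167 over 20 tests). Paired within samples, the shift was 1.80, 1.76 and 2.44 in wild type and 0.77, 0.82 and 0.42 in pat1. The shift in the response itself was lower in pat1 by 1.33 on the log2 scale without overlap of the samples (a change of -1.33, exact permutation p = 0.1, adjusted p = 0.167).

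The FKS3 to FKS1 difference was higher in pat1 by 0.89 without drug and by 0.96 with Congo Red, both without overlap (exact permutation p = 0.1, adjusted p = 0.167). Its change with Congo Red was -0.20 in wild type (exact permutation p = 0.3) and -0.13 in pat1 (exact permutation p = 0.5). Paired within samples it was 0.12, -0.34 and -0.38 in wild type. The strain and drug changes were not tested against each other. The GSC2 to FKS3 difference moved by 2.20 with Congo Red in wild type without overlap. It changed by 0.80 in pat1 with overlap of the groups (exact permutation p = 0.2), while the paired changes were 0.97, 0.82 and 0.61, above 0 in 3 of 3 samples. Between the strains it was 0.91 higher in untreated pat1 without overlap, and changed by -0.49 with Congo Red, where the groups overlapped.

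The SKN1 to KRE6 difference changed by -0.06 with Congo Red in wild type (SD within groups 0.15, exact permutation p = 0.8) and by -0.15 in pat1 (SD 0.10, exact permutation p = 0.2). Paired within samples the change was -0.10, -0.11 and 0.04 in wild type. In pat1 it was -0.34, -0.05 and -0.07, below 0 in 3 of 3 samples. A test with 3 against 3 arrays that finds no difference does not show that the paralogs respond equally. Between the strains the difference was lower in pat1 by 0.45 without drug and by 0.55 with Congo Red (changes of -0.45 and -0.55, in ratio 1.37-fold and 1.47-fold). Both were without overlap (exact permutation p = 0.1, adjusted p = 0.167).

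**Figure D3:**
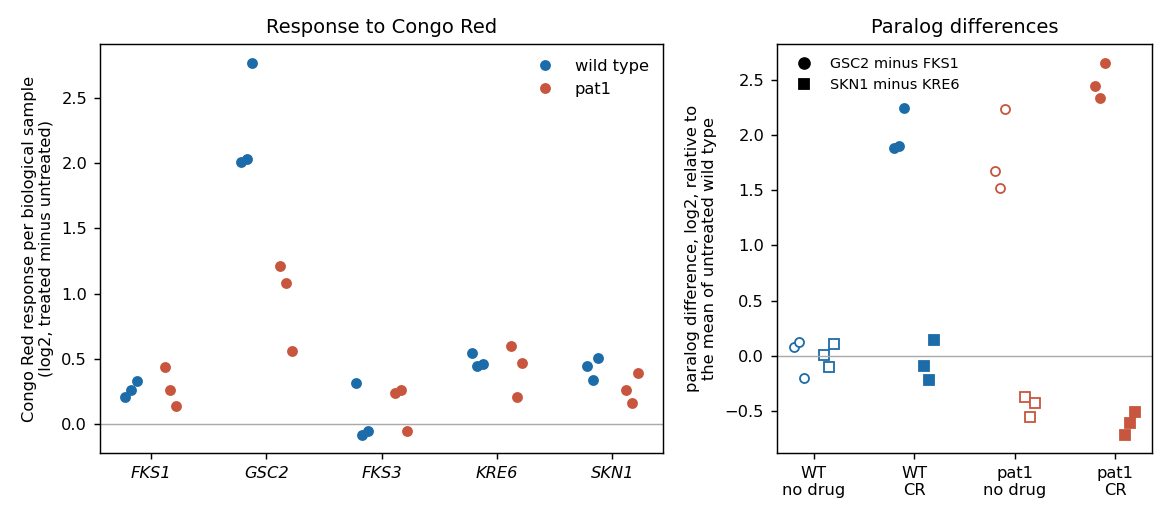
Left, Congo Red response (treated minus untreated log2 signal) of each biological sample, 3 per strain, for the 5 genes. Right, log2 difference of GSC2 minus FKS1 (circles) and SKN1 minus KRE6 (squares) on each array relative to the mean of untreated wild type; open points are untreated and filled points treated, blue wild type (WT) and red pat1. GSC2 is higher by 2.01 to 2.77 in wild type and by 0.56 to 1.21 in pat1, and the squares separate the strains while the circles separate untreated wild type from the other 3 groups.

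Over the 12 arrays the 5 genes did not move as 1 unit. Pearson's r was 0.81 between FKS1 and SKN1, 0.72 between KRE6 and SKN1, 0.71 between FKS1 and KRE6 and 0.68 between GSC2 and KRE6. FKS1 and GSC2, the main and the alternative subunit, gave 0.30, and FKS3 gave -0.60 with SKN1 and -0.51 with FKS1. These correlations are descriptions over arrays that share groups and biological samples. In deviations from the group means, KRE6 and SKN1 gave the highest value of the 10 pairs, 0.91. There FKS1 gave 0.40 with SKN1, 0.58 with KRE6 and 0.45 with GSC2, and GSC2 gave 0.46 with KRE6. FKS3 gave -0.24 with SKN1 and -0.32 with FKS1.

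The genes whose signal over the 12 arrays was most like that of GSC2 were PLN1, a lipid droplet protein (r = 0.945), ISN1, a nucleotidase of IMP (0.943), PLB1, a phospholipase B (0.941), ADD37 (0.921) and RCR2, a relative of the Congo Red resistance gene RCR1 (0.920). As a description of genes chosen for this likeness, with no test, their differences with Congo Red in wild type ran from 0.31 (ISN1) to 1.27 (PLN1) and those between untreated strains from 0.25 (ISN1) to 1.00 (PLN1). FKS1 was most like CCW14, a wall mannoprotein (0.977), SKT5, an activator of chitin synthase (0.957), and ATX2, a Golgi manganese transporter (0.943). KRE6 was most like EXG1, an exoglucanase of the wall (0.953), ARC40, an actin-nucleating subunit (0.950), and SIM1, a wall protein of the SUN family (0.943). FKS3 was most like DSF1 (0.937), DRE2 (0.931) and the flocculin gene FLO9 (0.928). SKN1 was most like NAM8, a splicing factor (0.974), TPD3, a phosphatase scaffold (0.968), and DFG10, a polyprenol reductase (0.953).

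Other genes of glucan synthesis were read as lists. Among 9 genes of beta-1,6-glucan assembly, ROT1, a chaperone of the endoplasmic reticulum, rose by 0.67 ± 0.12 with Congo Red in wild type (limma adjusted p = 0.00833), and the other 8 did not pass, so 1 of 9 rose where 2.44% of all genes did. ROT1 lost this call without wild type sample 2 and pat1 sample 3 (0.72, adjusted p = 0.0567) and in the fit to only the groups compared (adjusted p = 0.0522). The list median was 0.26, against -0.03 over all genes. With the replicate block 3 of 9 rose, against 8.22% of all genes. Among them was KNH1, a homolog of the KRE9 gene for a secreted glucan assembly protein (0.78, adjusted p = 0.000258). KNH1 did not pass in the main fit (limma adjusted p = 0.182) and passed in 3 of 23 alternatives. It was among the dimmest genes, so it is absent from the fit that leaves those out. None of the 9 passed in pat1, where 0.661% of all genes rose (median 0.16 against 0.04). With the replicate block KNH1 alone rose there (0.38, adjusted p = 0.0332), against 1.96% of all genes. This was the 1 of 23 alternatives in which KNH1 passed in pat1. KRE5, a protein of the endoplasmic reticulum related to glucosyltransferases, was lower in pat1 by 0.69 without drug and by 0.58 with Congo Red (differences of -0.69, adjusted p = 0.0161, and -0.58, adjusted p = 0.0262). With ROT1, described next, this made 1 of 9 lower without drug and 2 of 9 with it, where 2.94% and 2.18% of all genes were lower. Without drug it lost the call without untreated wild type array 3 (-0.58) or untreated pat1 array 1 (-0.61), without both arrays with URA3 signal, and in the fit to only the groups compared (adjusted p = 0.0866). With the drug it lost the call without treated wild type array 1 (-0.58) or 3 (-0.50) or treated pat1 array 2 (-0.54) or 3 (-0.58), or without wild type sample 2 and pat1 sample 3 (-0.66, adjusted p = 0.0837). ROT1 was lower in treated pat1 than in treated wild type (-0.53, adjusted p = 0.0255), and lost that call without treated wild type array 3 (-0.39) or treated pat1 array 2 (-0.56) or 3 (-0.48), in the fit to only the groups compared (adjusted p = 0.0772) and without wild type sample 2 and pat1 sample 3 (adjusted p = 0.0958). The list median was -0.03 against -0.01 over all genes without drug and -0.13 against 0.04 with it.

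Of 9 genes that regulate the synthase through Rho1 or Smi1, 1 rose in wild type, against 2.44% of all genes. It was BAG7, a GTPase-activating protein for Rho1, by 2.73 ± 0.39 (limma adjusted p = 0.00258), and it was 0.65 higher in pat1 without passing (adjusted p = 1.00). BAG7 was among the dimmest 25% of genes, so none of the 9 is called higher where those are left out. Between treated strains BAG7 differed by -1.37 (adjusted p = 0.0613). RHO1, the regulatory subunit itself, was higher by 0.31 in wild type (adjusted p = 0.142, and 0.0220 with the replicate block) and by 0.25 in pat1 (adjusted p = 0.738). The list median was 0.11 in both strains, against -0.03 over all genes in wild type and 0.04 in pat1. BEM2, another GTPase-activating protein, was the 1 of 9 lower in untreated pat1 (-0.43, adjusted p = 0.0295), against 2.94% of all genes. That call was lost when any 1 of the 6 untreated arrays or treated wild type array 1 was left out, with values from -0.45 to -0.42. It was also lost in the fit to only the groups compared (adjusted p = 0.0998) and without wild type sample 2 and pat1 sample 3 (adjusted p = 0.102). Of 3 genes that supply UDP-glucose, UGP1, PGM1 and PGM2, none passed in any of the 5 comparisons. PGM2, a phosphoglucomutase, was 1.26 higher in untreated pat1 with a standard error of 0.44 (adjusted p = 0.109). With Congo Red in pat1 PGM2 differed by -0.50, and this did not pass in the main fit. It passed as lower with the replicate block (adjusted p = 0.0319), the 1 of 24 alternatives in which it did, with values from -0.74 to -0.20. That block called 126 of all genes in pat1 in either direction, against 36 in the main fit.

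Of 10 genes of the wall integrity, calcineurin, cell cycle and general stress regulators of transcription, 3 rose with Congo Red in wild type, namely SLT2 (1.84), RLM1 (1.30) and the calcineurin subunit gene CMP2 (0.66), against 2.44% of all genes. In pat1, RLM1 (1.11, limma adjusted p = 0.00949) and CMP2 (0.47, adjusted p = 0.0461) rose, 2 of 10 against 0.661% of all genes. RLM1 lost this call without treated pat1 array 1 (1.08), in the fit to only the groups compared (adjusted p = 0.0573) and without wild type sample 2 and pat1 sample 3 (1.18, with an adjusted p just above the threshold). CMP2 lost it when any 1 of the 12 arrays was left out (0.41 to 0.50), and also in the fit to only the groups compared (adjusted p = 0.436), with centred arrays, loess, array weights, and trend and robust settings. SLT2 was higher by 1.14 in pat1 (adjusted p = 0.0524) and rose with the replicate block (adjusted p = 0.00324). Between untreated strains none of the 10 passed. MSN4, a general stress regulator, was 0.99 higher in untreated pat1 (adjusted p = 0.153) and SWI6 differed by -0.55 (adjusted p = 0.0697). None of the 10 passed between treated strains, where SLT2 differed by -0.72 (adjusted p = 0.0828). Without both arrays with URA3 signal, the list counts above were 0 in place of 1 for KRE5 and for BEM2 between untreated strains and 1 in place of 2 for the regulators in pat1, where CMP2 did not pass.

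**Figure D4:**
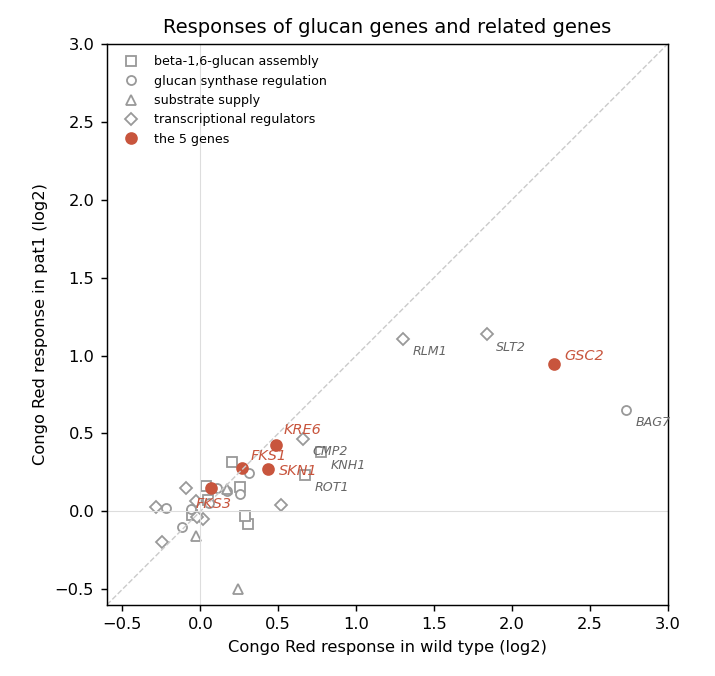
Congo Red response in pat1 (vertical, log2) against that in wild type (horizontal, log2) for the 5 genes (red) and the genes of 4 lists (grey, by marker), each point 1 gene; the dashed line marks equal responses. GSC2 (2.27 and 0.95) and BAG7 (2.73 and 0.65) lie farthest below the line, and FKS1, FKS3, KRE6 and SKN1 lie near it.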

How the data were processed

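The deposited table holds log2 signals per probe set, made by the authors with RMA per the submitters' processing notes. Its quantile step would remove a shift of most genes. No genome build was named, and no coordinates are printed. Of 5739 probe sets, 23 were controls, 218 had no listed gene and 5498 had 1 gene. Symbols were updated through Entrez numbers with the RefSeq table of assembly R64 (12 changed), and the brightest probe set of a gene was used. A limma 3.58.1 model (R 4.3.3) with a mean for each of the 4 groups took in all 12 arrays (8 residual degrees of freedom), without a block. Paralog differences were tested with two-sided exact permutation tests (scipy 1.17.1). The design text pairs an untreated and a treated array per biological sample. Deviations from group means correlated at 0.616 to 0.801 within pairs and at most at 0.231 across them, so the fixed replicate block (4 residual degrees of freedom) and the random block (correlation 0.631) were run as alternatives. Alternatives also covered median centring of arrays, cyclic loess, array weights, a fit without the dimmest 25% of genes, trend and robust options of eBayes, only the groups compared, the mean of all probe sets, a threshold of 0.01, each array left out in turn, without both arrays with URA3 signal, and without wild type sample 2 and pat1 sample 3. Named were the 5 genes, the 5 genes most like GSC2 and 3 most like each other member by Pearson's r. Of 4 lists, the genes that passed in the main fit and some of those with the largest changes were named. Members, lists and this rule were chosen with earlier results of these data known. The alternatives for the lists were added after the data were seen. The code of the fit was run on simulated arrays with independent noise. These lacked the pairing of the real arrays, so the run cannot show how the pairing affects the fit without a block. Arrays have no read depth, so their number limits the precision. The p-values of the main fit set a difference against the spread between arrays of the same group. That fit leaves aside the pairing of untreated and treated arrays.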

Additional observations from a re-analysis of the deposited data

How the results depend on the processing

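Over the 25 values of the 5 genes, 522 of 580 alternative values kept the direction and the side of the threshold, 21 passed where the main value did not, 12 (all of FKS3 with Congo Red) no longer passed, and 25 changed sign, all of values that passed in no fit. Some alternatives could not move a difference. These were the mean of all probe sets (each gene had 1), the 0.01 threshold, and leaving out an array of a group not compared. The replicate block called 3 genes in wild type and 2 in pat1, the random block 4 and 3 and 1 for the difference between responses, and array weights 4 in wild type and 2 in each strain comparison. In these comparisons the same settings also called more genes among all 5449, as counted below. Trend and robust settings called 1 of the 5 in pat1 (GSC2). With Congo Red, 0 of the 5 genes passed between strains at 0.01, with centred arrays and without dim genes (which removes FKS3). The same held with only the groups compared, without both URA3 arrays, and without wild type sample 2 and pat1 sample 3. Cyclic loess called SKN1 (-0.69) and not FKS3. Leaving out 1 array gave 0 to 1 calls in pat1, 1 to 2 between untreated and 0 to 1 between treated strains. KRE6 between untreated strains was 0.0009 with centred arrays, 0.015 with loess, 0.12 with weights, 0.17 without both URA3 arrays and -0.10 to 0.17 leaving out 1 array, and between treated strains -0.19 to 0.023. The FKS1 difference in response was -0.047, -0.02 and -0.077 with centred arrays, loess and without the URA3 arrays (-0.073 to 0.069 leaving out 1), that of FKS3 -0.012 with weights (-0.081 to 0.22), of KRE6 -0.25 to 0.033, and of SKN1 -0.33 to 0.0052. The FKS3 responses ran from -0.024 to 0.17 in wild type and -0.016 to 0.28 in pat1. FKS3 minus FKS1 in pat1 was 0.0798 without the URA3 arrays (-0.30 to 0.0798), its difference in response -0.019 to 0.23, and SKN1 minus KRE6 in wild type 0.024 (-0.15 to 0.024). The cause of these changes was not tested. Of the genes named as most like a member, all 3 were shared with centred arrays for FKS3, KRE6 and SKN1, 2 of 3 for FKS1 and 3 of 5 for GSC2, and by deviations from group means 1 for FKS1 and 0 for the others. Genes called among all 5449 numbered 146 in wild type (72 to 830 over the alternatives, 769 with the replicate block), 36 in pat1 (11 to 168, 126 with the block), 351 between untreated strains (24 to 889), 351 between treated strains (67 to 820) and 0 for the difference between responses (0 to 11). The random block gave 830 in wild type, 168 in pat1 and 11 for the difference between responses. Array weights gave 717 in wild type, 889 between untreated and 820 between treated strains.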
